A study of Mus musculus with 18 samples.

Results

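The expression of 51 genes of Wnt signalling was examined in sorted epithelial and non-epithelial cells of the mouse trachea and lung. The genes were chosen by name and matched to the Entrez identifiers of the count tables, and all 51 were among the 27179 genes counted. They comprised 16 Wnt ligands, 10 Frizzled receptors, 2 Lrp co-receptors, 3 Lgr receptors, 4 R-spondins, 8 secreted antagonists, 4 feedback inhibitors and 4 TCF/LEF transcription factors. Wnt proteins are secreted ligands that bind Frizzled receptors together with an Lrp co-receptor, which protects β-catenin from degradation and lets it act with TCF/LEF factors on target genes, while some ligands steer cell polarity without β-catenin. R-spondins bind Lgr receptors and hold back Rnf43 and Znrf3, ubiquitin ligases that clear Frizzled receptors from the cell surface. In the lung, Wnt signals pass between mesenchyme and epithelium during development and are used by epithelial progenitors in the adult.

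RNA was sequenced from cells of untreated C57BL/6 mice, given in the study's methods as males of 8 to 12 weeks, with 3 libraries for each of 6 populations. Basal cells (NGFR positive) and Non-basal cells (NGFR negative) were sorted from the tracheas of mice 1 to 3. Airway CD24H cells (positive for EpCAM and CD104, high CD24, enriched in ciliated cells by label), Airway CD24L cells (low CD24, enriched in club cells by label), EpCAM neg cells (non-epithelial by label) and Alveolar cells (EpCAM positive, low CD104) were sorted from the lungs of mice 4 to 6. The study's methods for mouse lung stain CD45 of leukocytes and CD31 of endothelium and define alveolar cells as negative for both. Organ, animal and cell type cannot be told apart wherever trachea is compared with lung. In bulk samples such as these, fewer cells of a type and less RNA per cell cannot be told apart either.

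Libraries held 29317215 to 32993621 counted reads in trachea and 9811503 to 13208897 in lung, so low transcripts carried more counting error in lung. Levels are given as RPKM (reads per kilobase of gene, scaled to the size of the library with TMM factors), with the 3 libraries of a population always in the order of its mice. Of the 51 genes, 48 passed the filter on low counts, and *Wnt3*, *Wnt9b* and *Dkk1*, with 16, 4 and 3 counts over all 18 libraries, did not. Each marker named next was highest in the population whose label it matches. The basal keratin *Krt5* was at 1478 to 1571 RPKM in Basal and *Foxj1* of ciliated cells at 588 to 698 in Airway CD24H. *Scgb1a1* of club cells was at 471792 to 665687 in Airway CD24L and *Sftpc* of alveolar type 2 cells at 149929 to 168632 in Alveolar. The fibroblast collagen *Col1a1* was at 1071 to 1157 in EpCAM neg. The other club markers examined, *Scgb3a2* and *Cyp2f2*, were highest in Non-basal instead. Mean *Scgb3a2* was 12871.6 RPKM in Non-basal and 10701.6 in Airway CD24L, and mean *Cyp2f2* was 14268.3 and 11594.1. Club markers were also present elsewhere, with mean *Cyp2f2* at 7104.73 RPKM in Basal and mean *Scgb1a1* at 78228.8 in Airway CD24H. In 5 of the 6 populations 1 library stood apart from the other 2: Basal 1, Non-basal 1, Airway CD24H 1, Airway CD24L 1 and Alveolar 2. The chi-square per degree of freedom between counts was 21.1 to 39.6 for pairs with that library, 5.23 to 7.43 for the remaining pairs of these populations and 3.50 to 7.50 within EpCAM neg. Basal 1 was the lowest Basal library for *Fzd1*, *Fzd5* and *Wnt7b*. Both airway libraries that stood apart came from mouse 4. All 4 endothelial markers were highest in them among the Airway CD24H libraries, with *Pecam1* at 52.9, 24.9 and 13.3 RPKM, as were 3 of 4 among the Airway CD24L libraries, with *Pecam1* at 72.7, 25.2 and 23.7. The endothelial sum ranged from 52.7 to 198.2 RPKM in Airway CD24H, 112.1 to 257.2 in Airway CD24L, 127.8 to 221.7 in EpCAM neg and 43.4 to 82.0 in Alveolar, and none of the 4 markers was at 0 in a lung library. In trachea it did not exceed 0.672 RPKM, and *Cdh5* and *Cldn5* were at 0 in all Basal libraries. Exons of 10 of the 51 genes shared 3.16% to 17.8% of their bases with another gene (*Fzd5* the most, *Sfrp2*, *Lef1* and *Rspo3* over 10%), and whether counting used strand is not given in the sources used here.

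Of the 6 populations, the non-epithelial cells expressed the most of these genes. Mean levels of at least 1 RPKM were reached by 27 of the 51 genes in Basal, 27 in Non-basal, 25 in Airway CD24H, 30 in Airway CD24L, 36 in EpCAM neg and 24 in Alveolar. The most abundant were *Wnt4* in Basal, *Lgr6* in Non-basal, *Wnt11* in Airway CD24H, *Tcf7l1* in Airway CD24L, *Dkk3* in EpCAM neg and *Nkd1* in Alveolar. A gene was called highest in a population when it lay over 1.2-fold above each of the other 5 in edgeR's test, at an adjusted p-value under 0.05, and its difference from the closest population is given with the largest of the 5 adjusted p-values. By this rule 5 of the 48 genes tested were highest in Basal, where 5.14% of all genes tested were. EpCAM neg held 21 of the 48, against 14.7% of all genes. Airway CD24H held 3, against 12.5% of all genes, Alveolar 2, against 6.17%, Non-basal 1, against 2.94%, and Airway CD24L 0, against 0.951%. The remaining 16 genes tested were highest in no single population.

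**Figure D1:**
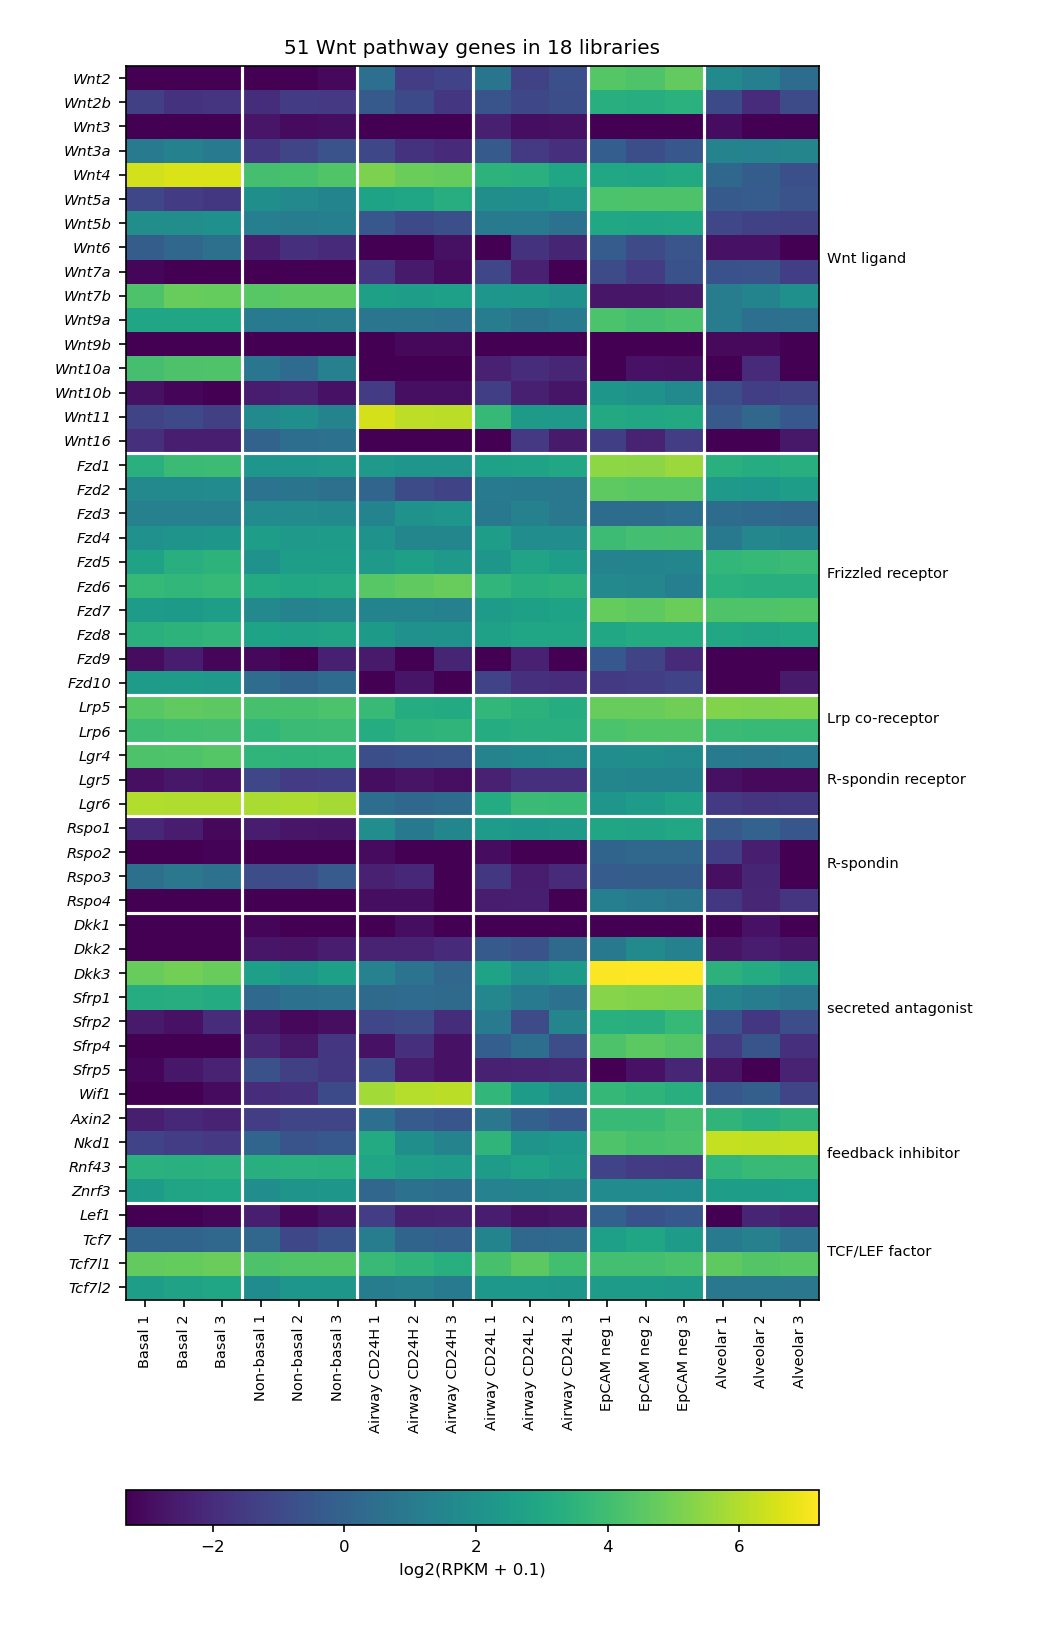
Levels of the 51 genes in all 18 libraries, as log2(RPKM + 0.1) on a colour scale, with genes in rows grouped by role and libraries in columns grouped by population. The EpCAM neg columns are the brightest for *Dkk3*, *Fzd1* and *Sfrp1*, *Wnt4* and *Lgr6* are bright in Basal, *Wnt11* and *Wif1* in Airway CD24H, and *Nkd1* in Alveolar.

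Among the ligands, Basal cells carried *Wnt4* and *Wnt10a* above every other population. *Wnt4*, a ligand of kidney and reproductive tract development, was at 91.2, 97.7 and 98.2 RPKM in Basal and 17.2, 17.5 and 20.6 in Non-basal. In lung, *Wnt4* was at 34.9, 28.2 and 26 in Airway CD24H, 11.1, 10.4 and 7.26 in Airway CD24L, 7.73, 7.41 and 8.33 in EpCAM neg and 1.06, 0.77 and 0.502 in Alveolar. The 3 Basal libraries lay above all others and no population overlapped the next in order except Airway CD24L with EpCAM neg. *Wnt10a*, a ligand of teeth, hair and other ectodermal structures, was at 17.2, 19.4 and 19.6 RPKM in Basal and 1.65, 1.2 and 2.32 in Non-basal. In lung, *Wnt10a* was at 0, 0 and 0 in Airway CD24H, 0.0939, 0.15 and 0.117 in Airway CD24L, 0, 0.0421 and 0.0388 in EpCAM neg and 0, 0.141 and 0 in Alveolar. Outside trachea it was close to or at 0, and it had no counts in Airway CD24H. Both were called highest in Basal, against Airway CD24H for *Wnt4* (log2 difference 1.69, standard error 0.16, largest adjusted p = 8.25e-08) and against Non-basal for *Wnt10a* (log2 difference 3.44, standard error 0.24, largest adjusted p = 1.53e-08).

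*Wnt6*, *Wnt3a* and *Wnt7b* were called highest in no single population. *Wnt6*, an ectodermal ligand, was at 0.756, 1.03 and 1.39 RPKM in Basal and 0.0824, 0.17 and 0.142 in Non-basal. In lung, *Wnt6* was at 0, 0 and 0.038 in Airway CD24H, 0, 0.19 and 0.111 in Airway CD24L, 0.738, 0.439 and 0.589 in EpCAM neg and 0.0426, 0.0445 and 0 in Alveolar. Basal libraries were the highest, and cleared EpCAM neg, which came next, by a narrow margin. *Wnt3a*, the ligand most used to activate β-catenin signalling in culture, was at 1.97, 2.41 and 1.98 RPKM in Basal and 0.222, 0.357 and 0.543 in Non-basal. In lung, *Wnt3a* was at 0.383, 0.188 and 0.143 in Airway CD24H, 0.701, 0.249 and 0.167 in Airway CD24L, 0.786, 0.479 and 0.635 in EpCAM neg and 2.56, 2.47 and 2.71 in Alveolar. Alveolar and Basal libraries were the only ones above 1 RPKM and did not overlap, and *Wnt3a* was not called between them (log2 fold change -0.28, standard error 0.29, adjusted p = 0.41). *Wnt7b*, made by the epithelium of the embryonic lung, was at 19.2, 27.1 and 26.5 RPKM in Basal and 22.3, 23.7 and 23.5 in Non-basal. In lung, *Wnt7b* was at 6.17, 5.76 and 5.99 in Airway CD24H, 4.59, 4.69 and 3.86 in Airway CD24L, 0.0546, 0.0561 and 0.069 in EpCAM neg and 2.12, 2.56 and 3.82 in Alveolar. Both tracheal populations overlapped, all epithelial libraries lay above EpCAM neg, and the 3 lung epithelial populations were in the order Airway CD24H, Airway CD24L and Alveolar, with a gap of under 0.1 RPKM between the last 2.

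The leading ligand of Airway CD24H was *Wnt11*, a ligand of cell movement and polarity. It was at 0.347, 0.396 and 0.304 RPKM in Basal and 3.17, 3.68 and 2.51 in Non-basal. In lung, *Wnt11* was at 91.9, 71.3 and 68.7 in Airway CD24H, 13.4, 5.25 and 5.12 in Airway CD24L, 8.24, 7.76 and 8.25 in EpCAM neg and 0.664, 1.02 and 0.652 in Alveolar. Airway CD24H exceeded EpCAM neg, the next population (log2 difference 3.26, standard error 0.27, largest adjusted p = 2.65e-08). Within Airway CD24L the library of mouse 4 was the highest for *Wnt11*, and it was also the highest for all 4 ciliated markers, with *Foxj1* at 108, 51.5 and 52.6 RPKM. The part of ciliated cells in the *Wnt11* level of Airway CD24L was not tested. *Wnt16*, a ligand of bone, was at 0.171, 0.0829 and 0.0847 RPKM in Basal and 0.92, 1.29 and 1.41 in Non-basal. In lung, *Wnt16* was at 0, 0 and 0 in Airway CD24H, 0, 0.236 and 0.0691 in Airway CD24L, 0.289, 0.0991 and 0.274 in EpCAM neg and 0, 0 and 0.0606 in Alveolar. Non-basal libraries were the highest (log2 difference 2.42, standard error 0.48, largest adjusted p = 0.000439 against EpCAM neg), and all other libraries were below 0.3 RPKM. *Wnt5a*, which signals through Ror receptors without β-catenin, was at 0.371, 0.265 and 0.226 RPKM in Basal and 3.7, 3.03 and 2.58 in Non-basal. In lung, *Wnt5a* was at 6.76, 7.44 and 9.32 in Airway CD24H, 3.6, 3.5 and 4.29 in Airway CD24L, 18.7, 19 and 19.1 in EpCAM neg and 0.685, 0.736 and 0.554 in Alveolar. It was highest in EpCAM neg, next in Airway CD24H, and lowest in Basal, where the 3 libraries lay below every other population.

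EpCAM neg cells carried 6 of the 14 ligands tested above every other population, *Wnt5a* among them, as they did 14.7% of all genes tested. *Wnt2*, a mesenchymal ligand that specifies the lung, was at 0, 0 and 0 RPKM in Basal and 0, 0 and 0.0154 in Non-basal. In lung, *Wnt2* was at 1.36, 0.28 and 0.335 in Airway CD24H, 1.61, 0.325 and 0.49 in Airway CD24L, 21.5, 19.99 and 25.6 in EpCAM neg and 3.17, 2.26 and 1.24 in Alveolar. No read was counted in any Basal library. In all 3 lung epithelial populations *Wnt2* was highest in mouse 4. That mouse was also highest for 4 of 5 fibroblast, 0 of 4 smooth muscle and pericyte and 0 of 4 endothelial markers in Alveolar. In Airway CD24H these counts were 3 of 5, 4 of 4 and 4 of 4, and in Airway CD24L 3 of 5, 3 of 4 and 3 of 4. The fibroblast sum was 88.0 to 142.1 RPKM in Alveolar, 26.7 to 43.3 in Airway CD24H and 131.1 to 154.1 in Airway CD24L. Most of the sum in Airway CD24L was *Dcn*, with a mean of 104 RPKM there and 19.1 in Alveolar. *Lum* was also higher in Airway CD24L, at 1.06 against 0.726. Means were higher in Alveolar than in Airway CD24L for *Col1a1* (36.1 and 16.6), *Col1a2* (37.5 and 17.4) and *Pdgfra* (20.8 and 6.41). The part of other cells in these *Wnt2* levels was not tested. *Wnt2b*, which acts with *Wnt2* in lung specification, was at 0.302, 0.193 and 0.198 RPKM in Basal and 0.162, 0.256 and 0.237 in Non-basal. In lung, *Wnt2b* was at 0.697, 0.415 and 0.22 in Airway CD24H, 0.567, 0.385 and 0.483 in Airway CD24L, 9.71, 9.34 and 10.4 in EpCAM neg and 0.419, 0.155 and 0.424 in Alveolar. No EpCAM neg library was near those of the other populations.

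*Wnt5b*, the closest relative of *Wnt5a*, was at 3.57, 3.58 and 3.77 RPKM in Basal and 2.23, 2.04 and 2.25 in Non-basal. In lung, *Wnt5b* was at 0.637, 0.406 and 0.498 in Airway CD24H, 1.94, 1.95 and 1.46 in Airway CD24L, 7.62, 7.38 and 7.97 in EpCAM neg and 0.372, 0.31 and 0.298 in Alveolar. No population overlapped the next in order. *Wnt9a*, a ligand of joint formation, was at 7.12, 7.49 and 7.41 RPKM in Basal and 1.94, 2.0 and 2.1 in Non-basal. In lung, *Wnt9a* was at 1.64, 1.67 and 1.49 in Airway CD24H, 2.05, 1.54 and 1.94 in Airway CD24L, 18.8, 16.6 and 18.2 in EpCAM neg and 2.1, 1.33 and 1.43 in Alveolar. Its order was EpCAM neg, then Basal, then the other 4 populations, which overlapped. *Wnt10b*, which favours bone over fat in marrow, was at 0.0383, 0.0124 and 0 RPKM in Basal and 0.0765, 0.0946 and 0.0439 in Non-basal. In lung, *Wnt10b* was at 0.271, 0.0333 and 0.0353 in Airway CD24H, 0.289, 0.0882 and 0.0517 in Airway CD24L, 4.69, 4.15 and 3.15 in EpCAM neg and 0.475, 0.289 and 0.317 in Alveolar. The log2 difference from EpCAM neg to the next population ran from 1.07 for *Wnt5b* against Basal to 4.35 for *Wnt2b* against Airway CD24L. *Wnt7a*, the remaining ligand tested, was at 0 to 0.00895 RPKM in Basal, 0 in all 3 Non-basal libraries, 0.0248 to 0.214 in Airway CD24H, 0 to 0.377 in Airway CD24L, 0.26 to 0.528 in EpCAM neg and 0.286 to 0.55 in Alveolar. *Wnt3* and *Wnt9b* reached at most 0.0887 and 0.0204 RPKM in any library.

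**Figure D2:**
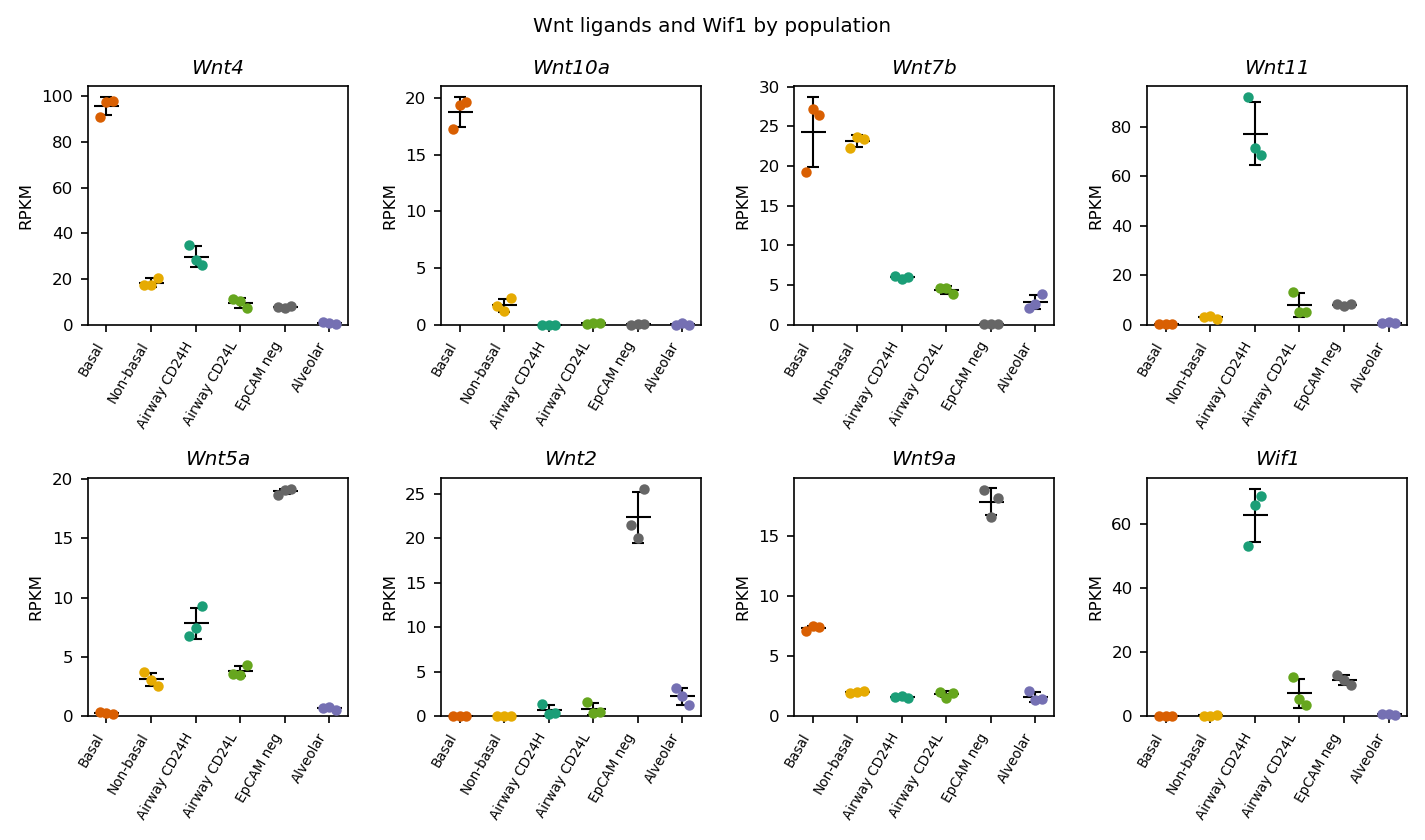
Levels of 7 Wnt ligands and of the antagonist *Wif1* in RPKM, on linear axes that start at 0. Points are libraries, bars are the mean of 3 libraries and whiskers the SD. *Wnt4* and *Wnt10a* peak in Basal, *Wnt11* and *Wif1* in Airway CD24H, *Wnt2*, *Wnt5a* and *Wnt9a* in EpCAM neg, and *Wnt7b* is high in both tracheal populations.

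Frizzled receptors were expressed in all populations. *Fzd1* had the highest mean level of them in EpCAM neg and, close to *Fzd6*, in Basal, *Fzd6* in Non-basal and both airway populations of the lung, and *Fzd7* in Alveolar. *Fzd10* was above 0.5 RPKM in trachea alone, at 5.52, 5.42 and 4.89 RPKM in Basal and 1.27, 0.964 and 1.2 in Non-basal. In lung, *Fzd10* was at 0, 0.0496 and 0 in Airway CD24H, 0.339, 0.164 and 0.154 in Airway CD24L, 0.242, 0.276 and 0.331 in EpCAM neg and 0, 0 and 0.0676 in Alveolar. Basal libraries lay above Non-basal ones, and Non-basal ones above all of the lung (log2 difference 2.20, standard error 0.23, largest adjusted p = 6.59e-07 for Basal against Non-basal). *Fzd6*, which orients hairs and other polarised structures, was at 13.2, 12.7 and 13.1 RPKM in Basal and 8.71, 7.86 and 8.18 in Non-basal. In lung, *Fzd6* was at 22.2, 24.7 and 27.3 in Airway CD24H, 12.3, 9.61 and 10.9 in Airway CD24L, 3.01, 2.83 and 2.26 in EpCAM neg and 10.4, 10.05 and 9.66 in Alveolar. Airway CD24H was the highest (log2 difference 0.93, standard error 0.10, largest adjusted p = 2.90e-06 against Basal) and EpCAM neg the lowest, without overlap at either end. *Fzd3*, a partner of *Fzd6* in polarity, was at 2.29, 2.32 and 2.31 RPKM in Basal and 3.26, 3.29 and 3.17 in Non-basal. In lung, *Fzd3* was at 2.61, 4.22 and 4.58 in Airway CD24H, 1.81, 2.4 and 1.76 in Airway CD24L, 1.23, 1.23 and 1.32 in EpCAM neg and 1.22, 1.12 and 1.01 in Alveolar. Airway CD24H and Non-basal overlapped at the top. *Fzd5*, a receptor of β-catenin signalling, was at 6.64, 9.86 and 11.3 RPKM in Basal and 4.05, 5.73 and 5.78 in Non-basal. In lung, *Fzd5* was at 4.97, 6.17 and 4.97 in Airway CD24H, 4.74, 6.99 and 5.76 in Airway CD24L, 2.53, 2.6 and 2.76 in EpCAM neg and 12.4, 13.1 and 14.6 in Alveolar. Alveolar libraries were above all others, yet the excess over Basal was close to the threshold (log2 difference 0.53, standard error 0.18, largest adjusted p = 0.0466). The call was lost when any 1 of the 3 Alveolar libraries, Basal library 1 or 2 or EpCAM neg library 1 or 2 was left out. It was also lost with other scalings (RLE size factors, or the library size by itself) and without the filter on low counts.

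EpCAM neg cells were called highest for 5 of the 10 Frizzled genes and for 14.7% of all genes tested. *Fzd1* was at 10.3, 14.4 and 14.9 RPKM in Basal and 4.49, 4.48 and 4.92 in Non-basal. In lung, *Fzd1* was at 5.0, 4.6 and 4.46 in Airway CD24H, 6.39, 6.57 and 7.73 in Airway CD24L, 42.6, 41.7 and 49.2 in EpCAM neg and 10.2, 9.0 and 9.61 in Alveolar. EpCAM neg libraries lay far above those of Basal, the next population. *Fzd2* was at 3.03, 3.18 and 3.26 RPKM in Basal and 1.53, 1.56 and 1.38 in Non-basal. In lung, *Fzd2* was at 0.998, 0.449 and 0.347 in Airway CD24H, 1.93, 1.81 and 1.78 in Airway CD24L, 24.3, 22.8 and 22.9 in EpCAM neg and 4.93, 4.74 and 5.87 in Alveolar. Again only EpCAM neg reached 20 RPKM. *Fzd4*, the receptor of Norrin in retinal vessels, was at 3.97, 4.27 and 4.68 RPKM in Basal and 5.65, 5.05 and 5.46 in Non-basal. In lung, *Fzd4* was at 4.05, 2.79 and 2.8 in Airway CD24H, 5.87, 3.49 and 3.5 in Airway CD24L, 14.6, 16.7 and 17.3 in EpCAM neg and 1.82, 2.85 and 2.6 in Alveolar. In Airway CD24H and Airway CD24L it was highest in mouse 4, as were 4 and 3 of the 4 endothelial markers, and the part of endothelial cells was not tested. *Fzd7* was at 5.51, 5.29 and 5.77 RPKM in Basal and 3.03, 2.54 and 2.81 in Non-basal. In lung, *Fzd7* was at 2.59, 2.6 and 2.4 in Airway CD24H, 5.42, 6.21 and 6.8 in Airway CD24L, 26.7, 24.5 and 28.5 in EpCAM neg and 19.9, 19.8 and 20.3 in Alveolar. EpCAM neg and Alveolar did not overlap for *Fzd7*, but the difference was small (log2 difference 0.41, standard error 0.089, largest adjusted p = 0.033). The call was lost when any 1 of the Alveolar libraries, EpCAM neg library 1 or 3 or Airway CD24L library 2 or 3 was left out. It was also lost with gene length as an offset. *Fzd9* was low, at 0.027, 0.0786 and 0.0134 RPKM in Basal and 0.0161, 0 and 0.0926 in Non-basal. In lung, *Fzd9* was at 0.0715, 0 and 0.112 in Airway CD24H, 0, 0.0931 and 0 in Airway CD24L, 0.647, 0.352 and 0.144 in EpCAM neg and 0, 0 and 0 in Alveolar. It had no counts in Alveolar and was highest in EpCAM neg. This call was lost without EpCAM neg library 1, Airway CD24H library 2 or Airway CD24L library 1 or 3. It was also lost without the lung libraries of mouse 4 and with a minimum CPM of 1. *Fzd8*, called highest in no population, was at 10.3 to 12.3 RPKM in Basal, 6.47 to 7.09 in Non-basal, 3.94 to 5.25 in Airway CD24H, 6.47 to 7.45 in Airway CD24L, 7.85 to 8.88 in EpCAM neg and 7.1 to 7.78 in Alveolar.

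The Lrp co-receptors were present in every library. *Lrp5*, known for its control of bone mass, was at 22.3, 24.7 and 23.7 RPKM in Basal and 17.8, 17.6 and 18.8 in Non-basal. In lung, *Lrp5* was at 14, 9.02 and 8.62 in Airway CD24H, 12.3, 11 and 9.17 in Airway CD24L, 27, 26.7 and 30.1 in EpCAM neg and 37.5, 35.7 and 36.9 in Alveolar. Alveolar had the largest mean, then EpCAM neg, and the 2 airway populations of the lung were lowest and overlapped. *Lrp5* was called highest in no population. Its call as lower in EpCAM neg than in Alveolar was lost with library size alone. That call was also lost without EpCAM neg library 1 or 2 or Alveolar library 1. *Lrp6* was at 15.2 to 17.2 RPKM in Basal, 12.4 to 14.7 in Non-basal, 9.09 to 11.8 in Airway CD24H, 9.0 to 9.87 in Airway CD24L, 18.6 to 20.2 in EpCAM neg and 13.7 to 14.4 in Alveolar.

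The Lgr receptors split by organ and cell type. *Lgr4* was at 19, 19.5 and 21.8 RPKM in Basal and 11.6, 11.5 and 11.9 in Non-basal. In lung, *Lgr4* was at 0.477, 0.527 and 0.575 in Airway CD24H, 2.49, 2.89 and 3.21 in Airway CD24L, 3.44, 3.7 and 3.33 in EpCAM neg and 1.99, 1.76 and 1.86 in Alveolar. Basal exceeded Non-basal (log2 difference 0.79, standard error 0.087, largest adjusted p = 1.20e-05), and the 2 tracheal populations lay above all lung populations. *Lgr6*, a marker of stem cells of the hair follicle, was at 64.1, 62 and 61.4 RPKM in Basal and 59.2, 60.2 and 56.1 in Non-basal. In lung, *Lgr6* was at 1.29, 1.06 and 1.22 in Airway CD24H, 8.97, 14.6 and 13.6 in Airway CD24L, 4.52, 5.4 and 6.6 in EpCAM neg and 0.243, 0.203 and 0.223 in Alveolar. Both tracheal populations were near 60 RPKM and did not overlap by a narrow margin, but *Lgr6* was not called between them (log2 fold change 0.095, standard error 0.14, adjusted p = 0.602). This depended on the scaling: with library size alone *Lgr6* was called higher in Basal than in Non-basal, and highest in Basal. *Lgr5*, the marker of intestinal stem cells, was at 0.0362, 0.0587 and 0.042 RPKM in Basal and 0.369, 0.268 and 0.283 in Non-basal. In lung, *Lgr5* was at 0.032, 0.0472 and 0.0334 in Airway CD24H, 0.0977, 0.167 and 0.171 in Airway CD24L, 2.8, 2.61 and 2.63 in EpCAM neg and 0.0374, 0.0195 and 0.0214 in Alveolar. It was detected mainly in EpCAM neg (log2 difference 3.12, standard error 0.18, largest adjusted p = 7.26e-11 against Non-basal) and lay below 0.4 RPKM in all epithelial libraries.

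Of the 4 R-spondins, 2 were highest in EpCAM neg and 1 in Basal, against 14.7% and 5.14% of all genes tested. *Rspo1*, an ovary-determining factor, was at 0.124, 0.0753 and 0.0154 RPKM in Basal and 0.0743, 0.0574 and 0.0533 in Non-basal. In lung, *Rspo1* was at 3.5, 1.82 and 2.74 in Airway CD24H, 5.37, 4.87 and 4.96 in Airway CD24L, 7.31, 7.11 and 7.93 in EpCAM neg and 0.673, 0.903 and 0.605 in Alveolar. EpCAM neg, Airway CD24L, Airway CD24H and Alveolar followed each other without overlap, and both tracheal populations were near 0. *Rspo2*, needed for lung and limb growth, was at 0, 0 and 0.00845 RPKM in Basal and 0, 0 and 0 in Non-basal. In lung, *Rspo2* was at 0.0226, 0 and 0 in Airway CD24H, 0.0276, 0 and 0 in Airway CD24L, 0.962, 1.06 and 1.09 in EpCAM neg and 0.29, 0.0826 and 0 in Alveolar. *Rspo4*, a nail factor, was at 0, 0 and 0 RPKM in Basal and 0, 0 and 0 in Non-basal. In lung, *Rspo4* was at 0.0318, 0.0312 and 0 in Airway CD24H, 0.0777, 0.0828 and 0 in Airway CD24L, 2.24, 1.88 and 1.64 in EpCAM neg and 0.223, 0.116 and 0.213 in Alveolar. For both, EpCAM neg stood above all other populations, with Alveolar next (log2 difference 2.99, standard error 0.56, largest adjusted p = 0.000301 for *Rspo2* and log2 difference 3.36, standard error 0.39, largest adjusted p = 4.93e-06 for *Rspo4*). *Rspo3*, which acts on vessels and epithelial stem cells, was at 1.36, 1.72 and 1.43 RPKM in Basal and 0.455, 0.469 and 0.72 in Non-basal. In lung, *Rspo3* was at 0.0944, 0.124 and 0 in Airway CD24H, 0.23, 0.0819 and 0.144 in Airway CD24L, 0.737, 0.758 and 0.763 in EpCAM neg and 0.0368, 0.115 and 0 in Alveolar. Basal was highest and EpCAM neg next, without overlap (log2 difference 1.00, standard error 0.32, largest adjusted p = 0.0177), a call that was lost without Basal library 2 or EpCAM neg library 1 and with the tracheal libraries thinned to lung depth.

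Of the 7 secreted antagonists tested, 5 were highest in EpCAM neg and 1 in Airway CD24H, against 14.7% and 12.5% of all genes tested. *Dkk3*, a divergent Dickkopf protein, was at 26.9, 31.5 and 26.8 RPKM in Basal and 6.12, 4.79 and 6.04 in Non-basal. In lung, *Dkk3* was at 2.43, 1.52 and 1.01 in Airway CD24H, 6.77, 4.18 and 5.25 in Airway CD24L, 143, 147 and 148 in EpCAM neg and 10.8, 8.91 and 6.56 in Alveolar. EpCAM neg libraries exceeded those of Basal, the next population, in every case (log2 difference 2.36, standard error 0.21, largest adjusted p = 2.72e-08). *Sfrp1*, a soluble Frizzled-related protein that binds Wnts, was at 9.2, 9.26 and 8.96 RPKM in Basal and 1.12, 1.42 and 1.51 in Non-basal. In lung, *Sfrp1* was at 1.16, 1.17 and 1.15 in Airway CD24H, 2.82, 1.91 and 1.42 in Airway CD24L, 39, 37.6 and 35.9 in EpCAM neg and 2.54, 2.04 and 1.66 in Alveolar. The first 2 populations in order were the same. In Basal, where *Dkk3* and *Sfrp1* came second, the summed fibroblast markers were at 159.4 to 162.6 RPKM against 5389 to 5597 in EpCAM neg, nearly all of it *Dcn* at 159 to 163, while *Col1a1*, *Col1a2*, *Pdgfra* and *Lum* did not exceed 0.0389 RPKM.

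*Sfrp2* was at 0.0711, 0.0414 and 0.155 RPKM in Basal and 0.0511, 0.0176 and 0.0325 in Non-basal. In lung, *Sfrp2* was at 0.377, 0.444 and 0.157 in Airway CD24H, 1.89, 0.442 and 2.65 in Airway CD24L, 10.4, 9.53 and 13.1 in EpCAM neg and 0.528, 0.23 and 0.454 in Alveolar. *Sfrp4* was at 0, 0 and 0 RPKM in Basal and 0.116, 0.0599 and 0.222 in Non-basal. In lung, *Sfrp4* was at 0.0429, 0.168 and 0.0447 in Airway CD24H, 0.785, 1.28 and 0.458 in Airway CD24L, 19.3, 23.6 and 21.1 in EpCAM neg and 0.25, 0.575 and 0.172 in Alveolar. Both had EpCAM neg on top and Airway CD24L next, and within Airway CD24L the 3 libraries of either gene spread widely. The summed smooth muscle and pericyte markers were at 43.1 to 89.7 RPKM in Airway CD24L and 11.5 to 26.8 in Airway CD24H. In EpCAM neg they were at 1008 to 1054. *Myh11* in Airway CD24L was at 12.3, 5.61 and 12.6, lowest where *Sfrp2* was lowest and *Sfrp4* highest. The part of such cells in the levels of either gene was not tested. *Dkk2*, which blocks Lrp co-receptors, was at 0, 0 and 0 RPKM in Basal and 0.0552, 0.0474 and 0.0791 in Non-basal. In lung, *Dkk2* was at 0.102, 0.10 and 0.149 in Airway CD24H, 0.696, 0.557 and 1.15 in Airway CD24L, 1.84, 3.19 and 2.38 in EpCAM neg and 0.0476, 0.0745 and 0.0545 in Alveolar. It had no counts in Basal, as was the case for *Sfrp4*. *Sfrp5* was low in all libraries, at 0.015 to 0.104 RPKM in Basal, 0.223 to 0.52 in Non-basal, 0.0414 to 0.397 in Airway CD24H, 0.0969 to 0.121 in Airway CD24L, 0 to 0.12 in EpCAM neg and 0 to 0.106 in Alveolar.

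*Wif1*, which binds Wnts outside the cell, was at 0, 0 and 0.0252 RPKM in Basal and 0.152, 0.172 and 0.421 in Non-basal. In lung, *Wif1* was at 53.3, 66 and 68.9 in Airway CD24H, 12.3, 5.52 and 3.59 in Airway CD24L, 12.9, 11.3 and 9.78 in EpCAM neg and 0.629, 0.821 and 0.36 in Alveolar. Airway CD24H was highest (log2 difference 2.47, standard error 0.30, largest adjusted p = 1.43e-06 against EpCAM neg), the tracheal populations were below 0.5 RPKM, and as for *Wnt11* the Airway CD24L library of mouse 4 was higher than the other 2. *Wnt11* and *Wif1* were the most abundant ligand and antagonist of the same sorted population. In Non-basal cells the ciliated marker *Foxj1* was at 31.7, 53.8 and 42.9 RPKM, against 588 to 698 in Airway CD24H. *Wif1* did not exceed 0.421 RPKM in Non-basal and *Wnt11* did not exceed 3.68. The part of ciliated cells in these levels was not tested.

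Of the 4 feedback inhibitors, which β-catenin signalling induces in many tissues, *Nkd1* and *Axin2* were lowest in trachea. *Nkd1*, a cytoplasmic inhibitor that binds Dishevelled, was at 0.332, 0.279 and 0.241 RPKM in Basal and 0.993, 0.567 and 0.657 in Non-basal. In lung, *Nkd1* was at 8.6, 3.67 and 2.54 in Airway CD24H, 11.9, 4.32 and 4.88 in Airway CD24L, 19.5, 17.6 and 18.2 in EpCAM neg and 77.5, 76.2 and 77.6 in Alveolar. Alveolar libraries lay within 2 RPKM of each other and far above EpCAM neg, the next population (log2 difference 2.06, standard error 0.35, largest adjusted p = 9.98e-05). *Axin2*, a scaffold of the β-catenin destruction complex, was at 0.0868, 0.13 and 0.106 RPKM in Basal and 0.28, 0.363 and 0.359 in Non-basal. In lung, *Axin2* was at 1.35, 0.73 and 0.609 in Airway CD24H, 1.71, 0.876 and 0.622 in Airway CD24L, 13.9, 13.8 and 16.7 in EpCAM neg and 11.7, 9.74 and 11.4 in Alveolar. EpCAM neg and Alveolar did not overlap, but *Axin2* was not called between them (log2 fold change 0.43, standard error 0.22, adjusted p = 0.0947). This depended on the setting: *Axin2* was called between them with limma voom, with library size alone and with only the 6 libraries compared. Without the lung libraries of mouse 4 it was called highest in EpCAM neg. In both airway populations the library of mouse 4 was the highest for *Nkd1* and for *Axin2*. Of the 4 alveolar type 2 markers, 3 were highest in that library among Airway CD24H, and 2 among Airway CD24L, where *Sftpb* and *Abca3* were lowest in it. Their sum ranged from 1225 to 2400.0 RPKM in Airway CD24H and from 4813 to 7505 in Airway CD24L, against 163942 to 183432 in Alveolar. Alveolar type 1, endothelial, and smooth muscle and pericyte markers were each highest in mouse 4 for 4 of 4 in Airway CD24H. In Airway CD24L this was so for 3 of 4 in each list. Fibroblast markers were highest in it for 3 of 5 in both populations. The part of alveolar or other cells in the *Nkd1* and *Axin2* values was not tested.

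*Rnf43* did not follow *Nkd1* and *Axin2* in trachea. It was at 10.5, 10.3 and 10.5 RPKM in Basal and 9.73, 10.3 and 9.59 in Non-basal. In lung, *Rnf43* was at 7.39, 5.76 and 5.6 in Airway CD24H, 5.62, 6.65 and 5.39 in Airway CD24L, 0.335, 0.268 and 0.247 in EpCAM neg and 12.1, 13.7 and 13.7 in Alveolar. All 15 epithelial libraries were above 5 RPKM and all 3 EpCAM neg libraries below 0.4. *Znrf3*, its relative, was at 5.63 to 7.39 RPKM in Basal, 3.52 to 4.67 in Non-basal, 1.01 to 1.46 in Airway CD24H, 2.47 to 2.76 in Airway CD24L, 3.25 to 3.38 in EpCAM neg and 5.68 to 6.08 in Alveolar, and lay above 3 RPKM in EpCAM neg as well.

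**Figure D3:**
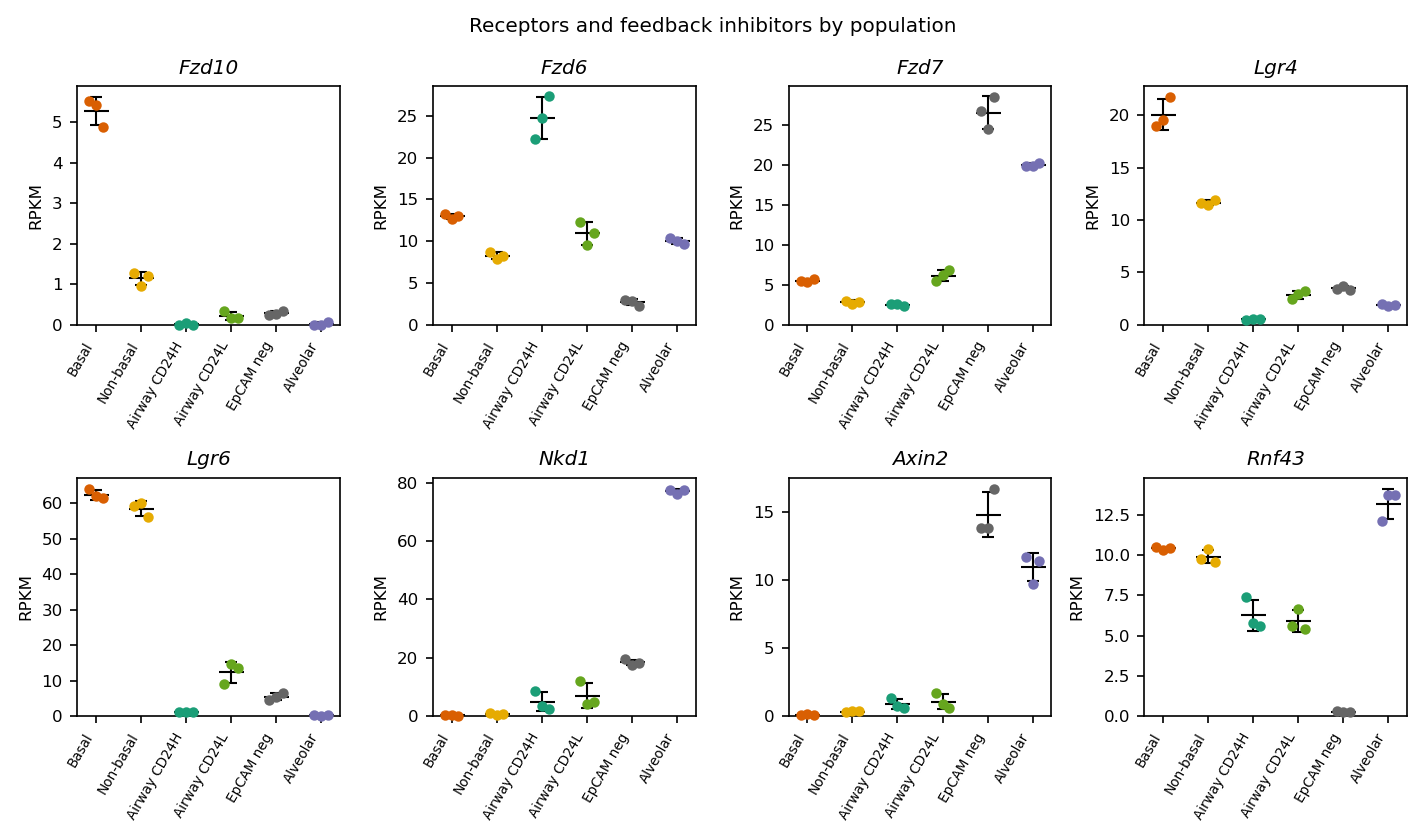
Levels of 5 receptors (*Fzd10*, *Fzd6*, *Fzd7*, *Lgr4*, *Lgr6*) and 3 feedback inhibitors (*Nkd1*, *Axin2*, *Rnf43*) in RPKM, on linear axes that start at 0, with points for libraries, bars for the mean of 3 and whiskers for the SD. *Fzd10*, *Lgr4* and *Lgr6* are high in trachea, *Nkd1* is high in Alveolar, *Axin2* in EpCAM neg and Alveolar, and *Rnf43* is near 0 only in EpCAM neg.

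The 4 TCF/LEF factors differed in how widely they were expressed. *Lef1* was at 0, 0 and 0.0115 RPKM in Basal and 0.0831, 0.0143 and 0.0397 in Non-basal. In lung, *Lef1* was at 0.276, 0.0903 and 0.0959 in Airway CD24H, 0.0749, 0.0399 and 0.0468 in Airway CD24L, 0.849, 0.537 and 0.619 in EpCAM neg and 0, 0.112 and 0.0821 in Alveolar. *Tcf7* was at 0.953, 0.951 and 1.07 RPKM in Basal and 1.0, 0.392 and 0.538 in Non-basal. In lung, *Tcf7* was at 2.09, 0.96 and 0.843 in Airway CD24H, 2.59, 1.05 and 1.13 in Airway CD24L, 5.99, 7.19 and 5.44 in EpCAM neg and 1.85, 2.3 and 1.53 in Alveolar. Both were highest in EpCAM neg, with no overlap with any other population. *Tcf7* in the airway populations was again highest in mouse 4. *Tcf7l1*, mostly a repressor, was abundant throughout, at 25.3 to 27.9 RPKM in Basal, 19.4 to 20.5 in Non-basal, 10.1 to 14 in Airway CD24H, 16.1 to 23.7 in Airway CD24L, 16.6 to 18.1 in EpCAM neg and 20.8 to 24.5 in Alveolar. *Tcf7l2* was at 5.72 to 7.42 RPKM in Basal, 3.41 to 4.67 in Non-basal, 1.87 to 2.28 in Airway CD24H, 4.65 to 4.87 in Airway CD24L, 5.05 to 5.54 in EpCAM neg and 1.69 to 1.76 in Alveolar. Its mean was the largest in Basal and the smallest in Alveolar, and it was called highest in no population.

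Windows of 250 bases before a transcript start were available from RefSeq (GRCm38.p6) for 35 of the 51 genes, 44 windows in all. A window can precede an internal start: 12 of the 44, those of *Nkd1* and *Axin2* among them, lay before a start over 1000 bases inside the gene. Gene positions were those of the RefSeq gene list used to match symbols. The TCF/LEF motif CTTTGA, read on either strand, occurred in 5 of the 44 windows (11.4%) and in 13.8% of 32851 windows of all genes. Shown are the windows at or near the gene start of *Wnt4*, the most abundant of the 51 genes in Basal, and of *Wif1* and *Wnt11*, the antagonist and the ligand highest in Airway CD24H. They are at chr4:137277385-137277634 for *Wnt4*, chr10:121033754-121034003 for *Wif1* and chr7:98834862-98835111 for *Wnt11*, all on the plus strand, that of *Wnt11* before a start 28 bases inside the gene, and the motif, in capitals, was found in the *Wnt11* window on the opposite strand, 50 bases before the start.
Wnt4: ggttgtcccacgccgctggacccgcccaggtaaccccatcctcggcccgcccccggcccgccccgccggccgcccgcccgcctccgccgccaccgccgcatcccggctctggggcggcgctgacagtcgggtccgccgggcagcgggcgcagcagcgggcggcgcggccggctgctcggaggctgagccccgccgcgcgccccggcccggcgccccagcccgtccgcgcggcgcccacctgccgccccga
Wif1: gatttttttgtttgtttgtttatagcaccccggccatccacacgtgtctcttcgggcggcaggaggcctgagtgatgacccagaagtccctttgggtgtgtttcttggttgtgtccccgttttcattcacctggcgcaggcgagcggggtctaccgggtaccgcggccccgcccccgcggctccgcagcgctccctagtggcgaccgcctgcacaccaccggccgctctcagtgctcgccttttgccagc
Wnt11: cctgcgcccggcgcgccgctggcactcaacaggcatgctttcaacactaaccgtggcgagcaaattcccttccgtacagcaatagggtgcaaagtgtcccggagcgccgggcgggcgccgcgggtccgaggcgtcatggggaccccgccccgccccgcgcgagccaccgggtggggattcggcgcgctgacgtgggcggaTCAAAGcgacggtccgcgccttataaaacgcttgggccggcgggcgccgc
These letters describe the windows alone, and no binding was measured.

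Basal and Non-basal cells of the same 3 tracheas differed in 33 of the 48 genes tested. More ligands and Frizzled receptors were higher in Basal than lower, and *Sfrp1* and *Dkk3* were higher. *Wnt5a*, *Wnt11*, *Wnt16*, *Lgr5* and most of the other secreted antagonists tested were lower. By edgeR's quasi-likelihood test at an adjusted p-value under 0.05, 21 genes were higher in Basal, where 21.9% of all genes tested were, and 12 were lower, against 26.2% (48.2% in either direction). The median log2 fold change was 0.39 over the 48 genes and -0.017 over all genes. Of the 14 ligands tested 6 were higher and 3 lower, and of the 10 Frizzled receptors 7 were higher and 1, *Fzd3*, was lower. Of the 7 secreted antagonists tested 2 were higher and 4 lower. *Wnt10a* was 10.8-fold higher in Basal (log2 fold change 3.44, standard error 0.24, adjusted p = 1.13e-08). *Wnt6* (log2 fold change 2.98, standard error 0.40, adjusted p = 8.32e-06), *Sfrp1* (log2 fold change 2.76, standard error 0.17, adjusted p = 6.70e-10), *Wnt3a* (log2 fold change 2.49, standard error 0.32, adjusted p = 5.52e-06) and *Wnt4* (log2 fold change 2.37, standard error 0.16, adjusted p = 2.42e-09) followed.

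The largest differences in favour of Non-basal cells, among genes of at least 0.5 RPKM there, were those of *Wnt5a*, 10.7-fold lower in Basal (log2 fold change -3.43, standard error 0.18, adjusted p = 1.39e-10), *Wnt16* (log2 fold change -3.37, standard error 0.44, adjusted p = 1.09e-05) and *Wnt11* (log2 fold change -3.15, standard error 0.33, adjusted p = 4.47e-07). *Fzd3* was lower in Basal by a small margin (log2 fold change -0.49, standard error 0.15, adjusted p = 0.0127), a call that was lost when libraries were scaled by size without TMM (log2 fold change -0.14, adjusted p = 0.431). *Nkd1* was called lower in Basal (log2 fold change -1.38, standard error 0.47, adjusted p = 0.0232), but the adjusted p was 0.0574 without Basal library 2, 0.0723 without Basal library 3 and 0.106 without Non-basal library 1, and 0.119 with the tracheal libraries thinned to lung depth. Without Basal library 1, 33 genes were called, and without Non-basal library 1, 31. *Dkk2* and *Sfrp4*, without counts in Basal, were at least 8.04-fold and 8.44-fold lower there, with 3 counts over the group as the floor that a count of 0 allows. *Wnt7b*, the most abundant ligand of Non-basal cells, was not called (log2 fold change 0.068, standard error 0.15, adjusted p = 0.735). With library size alone *Wnt7b* was called higher in Basal.

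**Figure D4:**
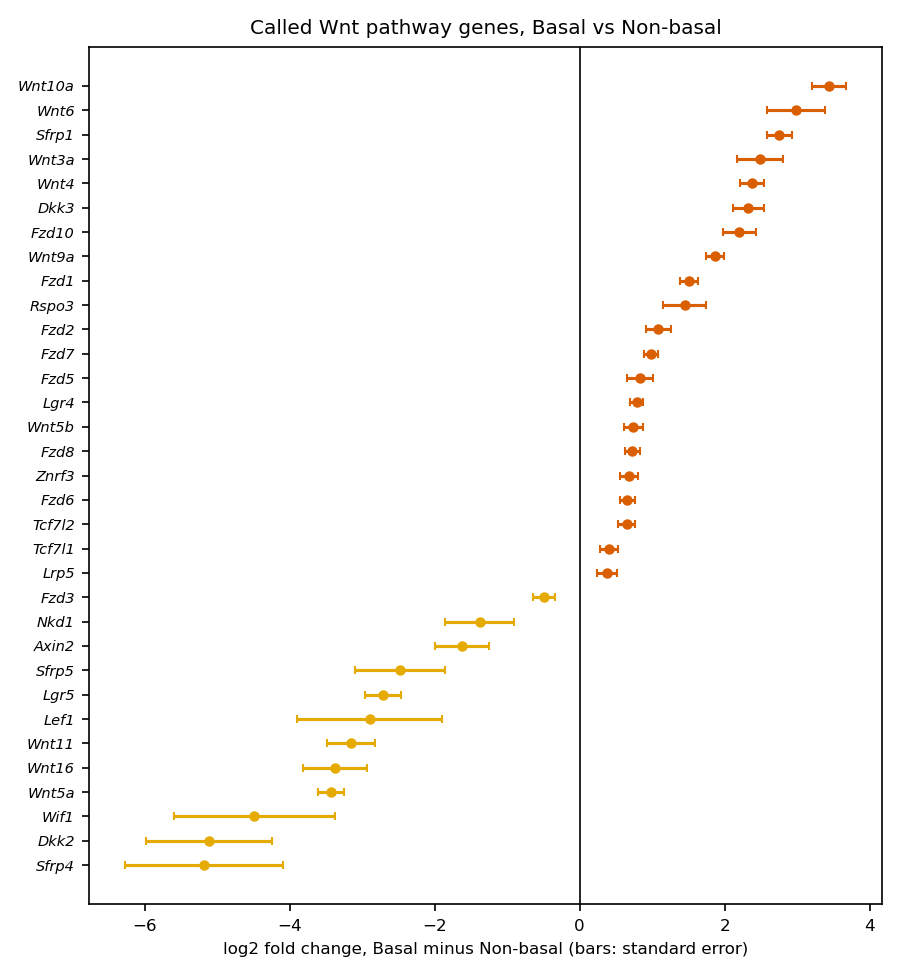
Log2 fold change of Basal minus Non-basal for the 33 genes called in this comparison, ordered by size, with bars for the standard error of the fit. Positive values, 21 in number, are higher in Basal and negative values, 12 in number, are lower, and the widest bars belong to genes with few or no counts in Basal (*Sfrp4*, *Dkk2*, *Wif1* and *Lef1*), whose fitted values depend on the fit and are no bound.

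Airway CD24H and Airway CD24L cells of the same lungs differed in 27 of the 48 genes, mostly in the direction of lower levels in Airway CD24H. There were 7 genes higher, where 27.8% of all genes tested were, and 20 lower, against 27.2%, against a background of 55% in either direction. The median log2 fold change was -0.61 over the 48 genes and -0.061 over all genes. The genes higher in Airway CD24H were *Wnt11* (log2 fold change 3.28, standard error 0.27, adjusted p = 1.77e-08), *Wif1* (log2 fold change 3.12, standard error 0.32, adjusted p = 2.02e-07), *Wnt4* (1.63), *Fzd6* (1.18), *Wnt5a* (1.05), *Fzd3* and *Wnt7b*. All 3 Lgr receptors were lower, *Lgr6* by 10.4-fold (log2 fold change -3.38, standard error 0.17, adjusted p = 2.97e-10) and *Lgr4* by 5.42-fold (log2 fold change -2.44, standard error 0.12, adjusted p = 2.61e-10). Among the antagonists 5 of 7 were lower, including *Sfrp4* (log2 fold change -3.25, standard error 0.62, adjusted p = 0.000331), *Dkk2* (log2 fold change -2.75, standard error 0.38, adjusted p = 1.36e-05) and *Sfrp2* (log2 fold change -2.30, standard error 0.52, adjusted p = 0.00113), the last with overlapping libraries. These named antagonists were highest in EpCAM neg. The summed smooth muscle and pericyte markers were at 11.5 to 26.8 RPKM in Airway CD24H and 43.1 to 89.7 in Airway CD24L. The part of such cells in the differences was not tested. Without the 4 lung libraries of mouse 4, 28 genes were called, 7 higher and 21 lower, and *Wnt7b* and *Wnt10a* were no longer among them. With that mouse left out *Wnt11* was still higher in Airway CD24H (log2 fold change 3.76, adjusted p = 5.31e-11), and *Wif1* was at 3.88. *Sfrp4* was at -4.17 without Airway CD24H library 2. Without Airway CD24H library 1 alone, 29 genes were called between the airway populations, and 28 were without Airway CD24L library 1.

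Alveolar cells differed from both airway populations in the same lungs in higher feedback inhibitors and in lower *Wnt4*, *Wnt5a* and *Wnt11*. In Airway CD24L against Alveolar, 17 genes were higher, where 24.2% of all genes were, and 14 lower, against 24.2% (48.4% in either direction). Over the 48 genes the median log2 fold change was 0.36, and 0.026 over all genes. *Lgr6* was 55-fold higher in Airway CD24L (log2 fold change 5.78, standard error 0.23, adjusted p = 1.62e-12), followed by *Dkk2* (3.71), *Wnt4* (3.61), *Wif1* (3.56) and *Wnt11* (3.35). All 4 feedback inhibitors were lower in Airway CD24L, led by *Nkd1* (log2 fold change -3.45, standard error 0.38, adjusted p = 6.39e-07) and *Axin2* (log2 fold change -3.33, standard error 0.27, adjusted p = 1.23e-08), and *Wnt3a* (-2.73), *Lrp5* (-1.76) and *Fzd7* (-1.71) were lower too. Without mouse 4, 28 genes were called, and the log2 fold change moved to 2.62 for *Wnt11*, 2.93 for *Wif1*, -3.60 for *Wnt3a* and -4.06 for *Nkd1*. Leaving out either Alveolar library 2 or Airway CD24L library 1, 32 genes were called.

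In Airway CD24H against Alveolar, 9 genes were higher, where 30.5% of all genes were, and 22 lower, against 31.4% (61.9% in either direction). The median log2 fold change was -0.66 against -0.0060 over all genes. *Wif1* (log2 fold change 6.68, standard error 0.42, adjusted p = 1.97e-10) and *Wnt11* (log2 fold change 6.62, standard error 0.35, adjusted p = 1.89e-11) were 102-fold and 98.7-fold higher in Airway CD24H, and *Wnt4* (5.24), *Wnt5a* (3.56) and *Lgr6* (2.40) came next. *Nkd1* (log2 fold change -3.96, standard error 0.39, adjusted p = 7.17e-08), *Axin2* (log2 fold change -3.61, standard error 0.27, adjusted p = 1.57e-09), *Wnt3a* (-3.42), *Fzd2* (-3.11) and *Fzd7* (-2.98) were the most reduced, and all 4 feedback inhibitors were again lower. These comparisons share the Alveolar libraries, so their results are not independent. Without mouse 4, 30 genes were called, and *Nkd1* and *Fzd2* were at log2 fold changes of -4.62 and -3.72. Without Alveolar library 2, 29 were called, and 31 without Airway CD24H library 1.

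EpCAM neg cells differed from each of the 3 epithelial populations of the same lungs mostly by higher levels of Wnt genes. Against Alveolar, 33 genes were higher, where 32.7% of all genes were, and 9 lower, against 29.2% (61.9% in either direction). The median log2 fold change was 3.15, or 3.04 with *Fzd9*, which had no counts in Alveolar, set at its bound, and 0.012 over all genes. *Lgr5* (log2 fold change 6.59, standard error 0.30, adjusted p = 2.58e-12), *Sfrp4* (log2 fold change 5.98, standard error 0.36, adjusted p = 5.68e-10), *Dkk2* (5.35), *Wnt2b* (4.88) and *Wnt5a* (4.84) led the higher genes, and all 4 R-spondins and all 3 Lgr receptors were higher. *Rnf43* was 46.2-fold lower in EpCAM neg (log2 fold change -5.53, standard error 0.16, adjusted p = 4.62e-15), and *Wnt7b* (log2 fold change -5.52, standard error 0.32, adjusted p = 4.81e-11), *Fzd5* (-2.34), *Nkd1* (-2.06) and *Wnt3a* (-2.02) were lower as well. Without Alveolar library 2, 41 genes were called and *Sfrp4* was at 6.62.

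Against Airway CD24L, 31 genes were higher in EpCAM neg, where 32.1% of all genes were, and 6 lower, against 31.4% (63.4% in either direction). Over the 48 genes the median log2 fold change was 1.51, and 0 over all genes. *Rspo2*, with 1 count in all of Airway CD24L (ratio 103, counting interval 18.2 to 4111, adjusted p = 9.96e-06), *Rspo4* (log2 fold change 5.02, standard error 0.48, adjusted p = 5.74e-07), *Dkk3* (log2 fold change 4.75), *Wnt2* (4.74) and *Wnt10b* (4.71) were the highest, and *Wnt7b* (log2 fold change -6.16, standard error 0.30, adjusted p = 6.43e-12), *Rnf43* (-4.37), *Fzd6* (-2.02), *Lgr6* (-1.17) and *Fzd5* (-1.15) the lowest. *Wnt4*, *Wnt11* and *Wif1* were not called, with log2 fold changes of -0.29, 0.019 and 0.65. These depended on the setting: *Wif1* was called with a block for mouse and with limma voom, *Wnt11* and *Wif1* without mouse 4 or its Airway CD24L library alone, and *Wnt4* with gene length as an offset or without Airway CD24L library 3. Without mouse 4 the log2 fold changes of *Wnt2* and *Wnt10b* were 5.82 and 5.63. Without Airway CD24L library 1 alone, 37 genes were called.

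Against Airway CD24H, 38 genes were higher in EpCAM neg, where 36.7% of all genes were, and 8 lower, against 35.6% (72.2% in either direction). The median log2 fold change was 2.46, or 2.31 with *Wnt16*, which had no counts in Airway CD24H, set at its bound, against 0.043 over all genes. *Sfrp4* was 237-fold higher (log2 fold change 7.89, standard error 0.42, adjusted p = 8.40e-11), followed by *Dkk3* (6.46) and *Lgr5* (6.10). *Rspo2* (ratio 137, counting interval 24.2 to 5457, adjusted p = 2.85e-06) and *Rspo4* (ratio 89.5, counting interval 24.4 to 745, adjusted p = 9.23e-08) had 1 and 2 counts in all of Airway CD24H, and *Sfrp4* was at 8.81 without Airway CD24H library 2. *Wnt7b* was 96.9-fold lower (log2 fold change -6.60, standard error 0.29, adjusted p = 1.0e-12), and *Rnf43* (-4.46), *Wnt11* (-3.26), *Fzd6* (-3.20) and *Wif1* (-2.47) were lower. Without mouse 4, 42, 38 and 45 genes were called against Alveolar, Airway CD24L and Airway CD24H, where 42, 37 and 46 were with it, and 46 were called against Airway CD24H without its library 1 alone. EpCAM neg libraries held fibroblast, smooth muscle and endothelial markers together (*Acta2* at 800.1 to 845 RPKM, *Pecam1* at 38.7 to 56.2), and which of these cells carried each gene was not tested.

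**Figure D5:**
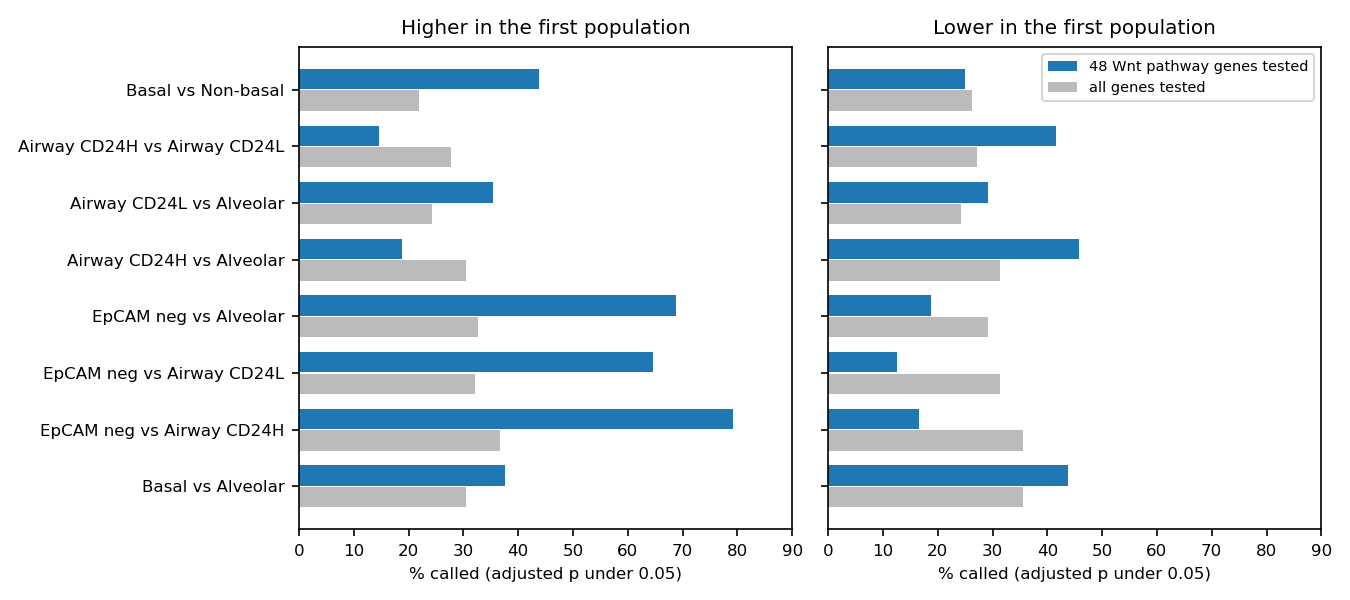
Share of the 48 genes tested (blue) and of all 17989 genes tested (grey) that were higher or lower in the first population of each of 8 comparisons, in percent on axes from 0, at an adjusted p-value under 0.05. The share of Wnt genes higher in EpCAM neg, 64.6% to 79.2%, stands above the 32.1% to 36.7% of all genes.

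Tracheal Basal and lung Alveolar cells, both of which include progenitors of their epithelium, differed in 39 of the 48 genes, in either direction. There were 18 genes higher in Basal, where 30.5% of all genes were, and 21 lower, against 35.6% (66.1% in either direction). Without Basal library 1 or without Alveolar library 2, 36 genes were called, 18 in each direction. Over the 48 genes the median log2 fold change was 0.19, or 0.015 with the 5 genes that had no counts in 1 of the populations at their bounds, against -0.093 over all genes. Scaled by library size without TMM, the split was 22 higher and 15 lower, and the median over all genes moved to 0.29. *Lgr6* was 277-fold (log2 fold change 8.12, standard error 0.23, adjusted p = 5.30e-15) and *Wnt4* 122-fold (log2 fold change 6.93, standard error 0.22, adjusted p = 1.81e-14) higher in Basal. *Wnt10a* (ratio 394, counting interval 135 to 1911, adjusted p = 6.84e-11), *Fzd10* (ratio 253, counting interval 70.02 to 2093, adjusted p = 6.84e-11) and *Wnt6* (ratio 35.2, counting interval 9.64 to 292, adjusted p = 3.55e-06) were higher as well, with 3, 2 and 2 counts in all of Alveolar, so that their ratios are given with the exact 95% interval of counting error alone. *Wnt2*, with no counts in Basal, was at least 171-fold lower there (adjusted p = 7.60e-07), and *Nkd1* was 270.4-fold lower (log2 fold change -8.08, standard error 0.49, adjusted p = 9.85e-11). *Axin2* (log2 fold change -6.65, standard error 0.31, adjusted p = 3.71e-12) and *Rspo1* (-3.28, and -3.89 without Basal library 1) were lower too, and *Wif1* had 2 counts in Basal (Alveolar over Basal, ratio 73.1, counting interval 19.1 to 623, adjusted p = 0.000133).

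A list of 52 further pathway genes, from Wnt secretion to planar polarity, was examined as well, and 49 of them were tested. Of these 49, 22 were higher and 10 lower in Basal than in Non-basal, 19 higher and 18 lower in Airway CD24H than in Airway CD24L, 16 higher and 20 lower in Airway CD24L than in Alveolar, and 13 higher and 21 lower in Airway CD24H than in Alveolar. In EpCAM neg 20 were higher and 18 lower than in Alveolar, 22 higher and 14 lower than in Airway CD24L, and 18 higher and 15 lower than in Airway CD24H, while 22 were higher and 18 lower in Basal than in Alveolar. The share called was 65.3% of the list against 48.2% of all genes for Basal with Non-basal, 75.5% against 55% for Airway CD24H with Airway CD24L, 73.5% against 48.4% for Airway CD24L with Alveolar and 69.4% against 61.9% for Airway CD24H with Alveolar. For EpCAM neg it was 77.6% against 61.9% with Alveolar, 73.5% against 63.4% with Airway CD24L and 67.3% against 72.2% with Airway CD24H, and for Basal with Alveolar it was 81.6% against 66.1%. The genes named here were picked from the list after their values were seen. *Porcn*, the acyltransferase of Wnt ligands, was at 87.8 ± 5.4 RPKM (SD, n = 3) in Basal, 129 ± 7.5 RPKM (SD, n = 3) in Airway CD24H and 8.24 ± 1.56 RPKM (SD, n = 3) in Alveolar (log2 fold change 3.41, standard error 0.17, adjusted p = 8.38e-12 for Basal against Alveolar). *Sp5*, a direct β-catenin target, was at 11.3 ± 1.05 RPKM (SD, n = 3) in Alveolar and below 0.5 RPKM on average in each of the other populations (log2 fold change -7.16, standard error 0.51, adjusted p = 9.17e-10 for EpCAM neg against Alveolar). *Notum*, a secreted enzyme that inactivates Wnts and is itself a target, was at 19.2 ± 3.15 RPKM (SD, n = 3) in Alveolar and 24.6 ± 2.28 RPKM (SD, n = 3) in EpCAM neg, and at 0.0467 ± 0.0295 RPKM (SD, n = 3) in Basal. Both were lower in Basal than in Alveolar (log2 fold change -8.59, standard error 0.38, adjusted p = 1.45e-12 for *Notum*), and *Sp5* had 1 count in Basal (Alveolar over Basal, ratio 2529, counting interval 453 to 100039, adjusted p = 3.72e-11).

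Receptors outside the Frizzled family also differed. *Ror2*, a receptor of Wnt5a, was at 4.78 ± 0.386 RPKM (SD, n = 3) in EpCAM neg and 0.27 ± 0.105 RPKM (SD, n = 3) in Alveolar (log2 fold change 4.12, standard error 0.30, adjusted p = 1.06e-09). Of the 8 co-receptors and alternative receptors 7 were higher in EpCAM neg than in Airway CD24L, where 32.1% of all genes were. Against Alveolar 5 were higher and 1 lower, where 32.7% and 29.2% of all genes were. Against Airway CD24H 5 were higher and 1 lower, where 36.7% and 35.6% of all genes were. *Dkkl1*, a relative of the Dickkopf proteins, was at 22 ± 0.60 RPKM (SD, n = 3) in Airway CD24H and 1.69 ± 1.49 RPKM (SD, n = 3) in Airway CD24L (log2 fold change 3.66, standard error 0.39, adjusted p = 3.03e-07). Of the 7 planar polarity genes, 4 were higher and 2 lower in Basal than in Non-basal, against 21.9% and 26.2% of all genes. The adhesion cadherin *Celsr1* was at 36.4 ± 0.432 RPKM (SD, n = 3) in Basal and 0.216 ± 0.0547 RPKM (SD, n = 3) in EpCAM neg. *Ctnnb1*, which encodes β-catenin, was the most abundant transcript of the list in every population except EpCAM neg, at 549.9 ± 13.3 RPKM (SD, n = 3) in Alveolar and 149 ± 2.47 RPKM (SD, n = 3) in EpCAM neg, where the proteoglycan *Gpc3* was at 381 ± 9.93 RPKM (SD, n = 3).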

How the data were processed

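Reads were aligned by the authors to the mouse genome (mm10) with Rsubread and assigned to Entrez genes with featureCounts and its RefSeq annotation, and the deposited values are raw counts per gene for each library. Symbols were matched for 25275 of the 27179 identifiers. Genes were kept if 3 or more libraries exceeded a CPM of 0.2. All 18 libraries were fitted together in edgeR 4.0.16 (R 4.3.3) with TMM scaling and quasi-likelihood tests, and p-values were adjusted by Benjamini-Hochberg over all 17989 genes tested, in each comparison. Each library came from 1 mouse, and p-values rest on the spread between libraries of a population, pooled over all 18. The main fit had no term for the mouse. Differences between mice, sorts and library preparations cannot be told apart in that spread. Libraries of the same mouse shared its number in the labels. Their deviations from the population means correlated at 0.117 to 0.336 for tracheal mice and at -0.059 to 0.28 for lung mice. The 51 genes and the pathway list were chosen with earlier results of these data known. Values in every library were given for genes highest in 1 population and, in each comparison, for up to 5 called genes in either direction with the largest log2 fold changes and at least 0.5 RPKM in the higher population, and ranges for the rest. Alternatives used limma voom 3.58.1, DESeq2 1.42.0, other scalings and filters, a block for mouse, thinning and fewer libraries.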

Additional observations from a re-analysis of the deposited data

How the results depend on the processing

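Of the 286 calls over the 8 comparisons, 286 were kept with RLE size factors, 284 with DESeq2, 281 with limma voom, 285 without a filter, 282 with a minimum CPM of 1 (the other 4 were of genes no longer tested), 281 with gene length as an offset, 279 with tracheal libraries thinned to lung depth, 267 with only the 6 libraries compared and 271 with library size alone. *Rnf43* in Basal against Alveolar changed sign with library size alone, to a log2 fold change of 0.068 from -0.34, not called there, and the cause was not tested. With 1 library left out in each of 48 fits, 1624 of 1716 calls were kept. The number of genes called stayed between 30 and 33 for Basal against Non-basal, 26 and 29 for Airway CD24H against Airway CD24L and 36 and 38 for Basal against Alveolar. A block for the mouse called 35 genes in Basal against Non-basal and lost 3 calls in all, *Wnt16* in Airway CD24H against Airway CD24L, *Rspo2* in Airway CD24L against Alveolar and *Fzd8* in EpCAM neg against Airway CD24L, and gained 5, *Wnt10b* and *Lrp6* in Basal against Non-basal, *Tcf7l2* in Airway CD24H against Alveolar, *Wif1* in EpCAM neg against Airway CD24L and *Lrp6* in Basal against Alveolar. With a fold change of 1 in place of 1.2, 38 genes were highest in 1 population, and with 1.5, 29. Leaving out the lung libraries of mouse 4, an alternative chosen after seeing the data, kept 199 of 214 calls. Lower depth in lung and 3 mice per population limit what could be called among genes below 1 RPKM.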
